A study of Drosophila melanogaster with 6 samples.

Results

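Long noncoding RNAs (symbols beginning with lncRNA:) and antisense RNAs (asRNA:) that were expressed in anterodorsal projection neurons (adPNs) of the Drosophila antennal lobe are described here in acj6 mutant and wild-type libraries. A gene was included when its level averaged 5 counts per 1000000 gene counts of a library (CPM) or more over all 6 libraries, with the dosage compensation RNAs roX1 and roX2 left out. This gave 65 RNAs, 37 named lncRNA and 28 named asRNA, of 2365 such genes considered. They were chosen by their mean CPM over both genotypes, so their abundance is a description, while the rule does not use the difference between the genotypes. An RNA that reached the level through 1 genotype only had to differ, however, and those RNAs are named further on. Symbols were matched to 17242 of the 17471 gene identifiers in the files, and noncoding RNAs among the 229 without a symbol are not analysed here.

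adPNs carry odour information from olfactory sensory neurons to higher brain centres, and acj6 encodes a POU-domain transcription factor of this lineage. The 3 acj6 mutant libraries, titled acj66, and the 3 wild-type libraries were all made from pupal adPNs at 36 to 40 h after puparium formation. They were made with a modified SMART-seq2 protocol, which amplifies full-length cDNA from polyadenylated RNA. The labels give neither the lesion nor the animals or cells behind a library, nor which transgenes each genotype carried, although every file has entries for GAL4, flp and mCD8-GFP.

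Long noncoding RNAs are transcripts without a known protein product. Some act as scaffolds for nuclear proteins, some are processed into microRNAs or small nucleolar RNAs, and many have no known role. Antisense RNAs are transcribed from the strand opposite a gene, usually across its exons, and reads from the shared stretch cannot be assigned without strand information. Most of the RNAs below carry only an annotation number (CR), and nothing is said of their function for that reason.

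Gene counts ranged from 24467328 to 38279909 per library, so that 3 counts correspond to between 0.0784 and 0.123 CPM. acj6 itself was counted at 271, 239.7 and 225 CPM in mutant replicates 1 to 3 and at 148, 145 and 162 CPM in wild-type replicates 1 to 3. It was thus higher in the libraries labelled mutant (log2 fold change 0.75 ± 0.12 SE, adjusted p 0.0124, edgeR's quasi-likelihood test); gene totals such as these say nothing of where the lesion lies and so do not test the label. The neuronal genes elav, nSyb and brp were abundant in all libraries, and so were the adPN genes C15 and kn. The 7 glial markers summed to between 160.5 and 201 CPM in the mutant libraries and between 205 and 259.8 CPM in the wild-type libraries, most of it Gs2, with repo at 1.53 CPM in the mutant and 1.90 CPM in the wild type. Of the 6 glial markers tested 0 were called by edgeR, DESeq2 or limma-voom, 0 were below an unadjusted p of 0.05, and the part of these cells in the results was not tested. Cuticle genes differed between the groups, with a summed level of 3.23 to 11.0 CPM for a list of 6 epithelial and cuticle markers in the mutant libraries and of 27.7 to 124 CPM in the wild-type libraries. In that list 4 of 6 genes fell (limma-voom called 0 of them), beside 1.33% of all tested genes. Cpr100A and Lcp65Ad had no count in any mutant library. The epithelial gene grh leaned the other way, at 2.53 CPM in the mutant and 1.04 CPM in the wild type, and was not called. The epithelial gene shg was at 3.08 CPM in the mutant and 3.07 CPM in the wild type and was not called either. The cuticle genes of the list were thus unequal between the groups, while its epithelial genes were not called. The 6 muscle markers summed to 12.8 to 29.8 CPM in the mutant libraries and 4.40 to 13.2 CPM in the wild-type libraries. DESeq2 called 2 of them, while edgeR and limma-voom called 0. Of 4 tested hemocyte and fat body markers 0 were called. Among them Hml had 28, 14 and 24 counts in the mutant libraries and 1, 0 and 0 in the wild type. Pxn averaged 4496 CPM in the mutant and 4988 CPM in the wild type. The rest of that list was low. He had 0 counts throughout, and NimC1 and eater averaged 0.106 and 0.0489 CPM over all libraries. Fbp1 was at 2.81 CPM in the mutant and 0.695 CPM in the wild type, and Lsp2 at 5.11 and 4.94 CPM. The part of all these cells in the results below was not tested. In bulk libraries, fewer cells of a type and less RNA per cell cannot be told apart.

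The counts of the 65 RNAs were dominated by noe and Hsromega. lncRNA:noe, a noncoding transcript first described from the nervous system, took 2.13%, 1.44% and 1.80% of all gene counts in mutant replicates 1 to 3 and 2.41%, 3.03% and 3.36% in wild-type replicates 1 to 3. lncRNA:Hsromega, a heat-inducible RNA that gathers nuclear ribonucleoproteins into omega speckles, took 0.772%, 0.505% and 0.636% in the mutant and 1.05%, 1.02% and 0.982% in the wild type. The other 63 RNAs together made up 0.348% ± 0.0266 of gene counts in the mutant and 0.358% ± 0.0373 in the wild type (SD, n = 3 each). All 65 together came to 2.78% ± 0.498 in the mutant and 4.31% ± 0.487 in the wild type, a difference of -1.53 percentage points that was -0.390 without noe.

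Including this pair, 10 of the 65 RNAs averaged 100 CPM or more, 13 lay between 20 and 100 CPM, 13 between 10 and 20 CPM, and 29 between 5 and 10 CPM. The highest antisense RNA reached 41.9 CPM. Levels of different RNAs are comparable only per length, and since shared bases gave antisense RNAs no counts in the pairs described further on, levels were divided by the length of exon that no other gene shares. On that scale noe stood at 16649 CPM per kb in the mutant and 27231 CPM per kb in the wild type. lncRNA:CR34335 came next, at 1272 and 2385 CPM per kb in mutant and wild type, and then lncRNA:CR42491, a host of the small nucleolar RNA Psi18S-531, at 646 and 652 CPM per kb. lncRNA:mimi followed at 446 and 361 CPM per kb, and Hsromega, whose merged exon is 21710 bases long, at 294 and 469 CPM per kb in mutant and wild type. lncRNA:cherub, by contrast, ranked 12th in CPM and 52nd per kb, with 8398 exonic bases.

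**Figure D1:**
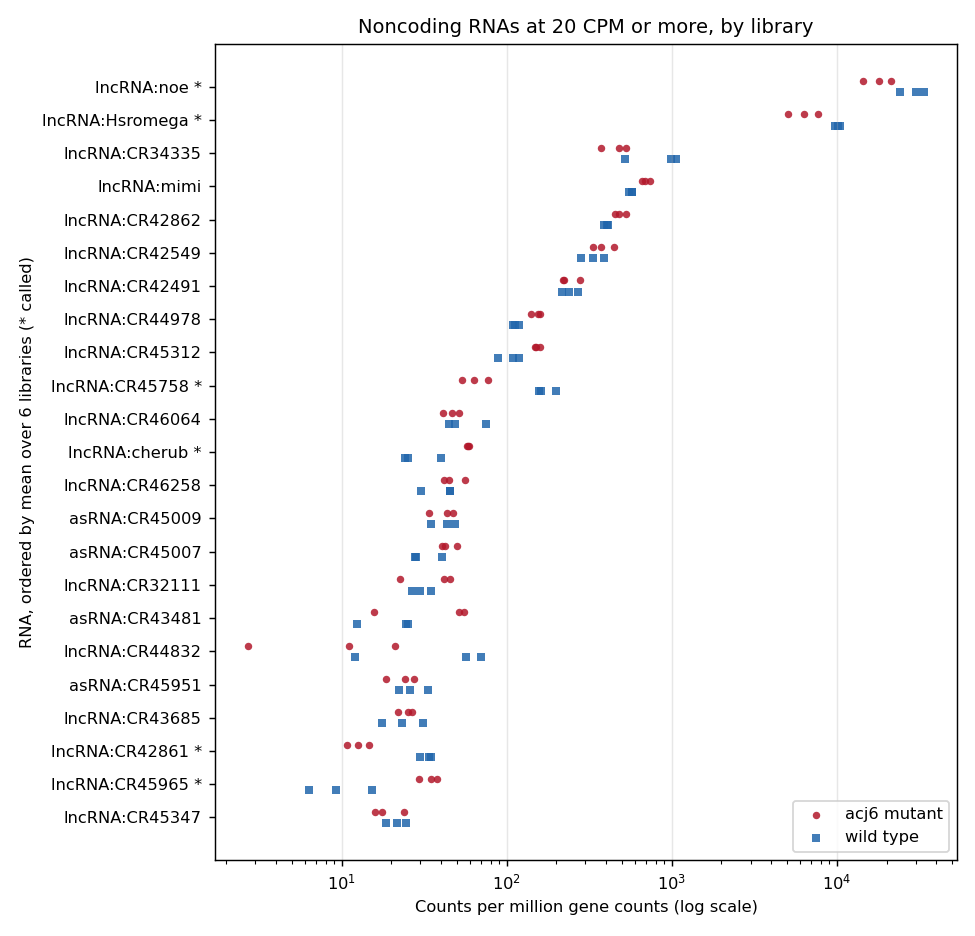
Level of each RNA averaging 20 CPM or more, in CPM on a log axis, with 1 point per library (circles for acj6 mutant, squares for wild type, n = 3 each). noe and Hsromega stand above the rest, and the mutant points of the called RNAs marked with an asterisk lie apart from the wild-type points.

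Between the genotypes, 4 RNAs rose and 4 fell in the mutant libraries at an adjusted p under 0.05 (edgeR's quasi-likelihood test, Benjamini-Hochberg over 9229 genes). The higher ones were lncRNA:cherub, lncRNA:CR45965, asRNA:CR43476 and lncRNA:CR44208, and the lower ones were noe, Hsromega, lncRNA:CR45758 and lncRNA:CR42861. The 8 calls are 12.3% of the 65 RNAs, all of which were tested, against 4.40% of all tested genes and 5.64% of the tested genes that also averaged 5 CPM or more. These 8 include CR43476 and CR44208, which averaged 5 CPM or more in the mutant only. By direction, 3.07% of all tested genes were higher and 1.33% lower. Members were picked with earlier results of these data known, so the share called is a description. Over the 65 RNAs the median log2 fold change was 0.19, with 39 above and 26 below 0, beside -0.0059 for all tested genes. At an unadjusted p under 0.05 there were 18 of the 65 RNAs, against 16.6% of all tested genes. DESeq2 called 14 of the 65, against 10.2% of all tested genes.

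Most of these calls depended on having all 6 libraries. Leaving out 1 library left between 1 and 4 of the 65 called, the lowest without mutant replicate 2 or without wild-type replicate 2. Over all genes the calls then numbered 143 to 249, against 406 with every library in the fit. CR45758 was the 1 RNA called in every leave-out.

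**Figure D2:**
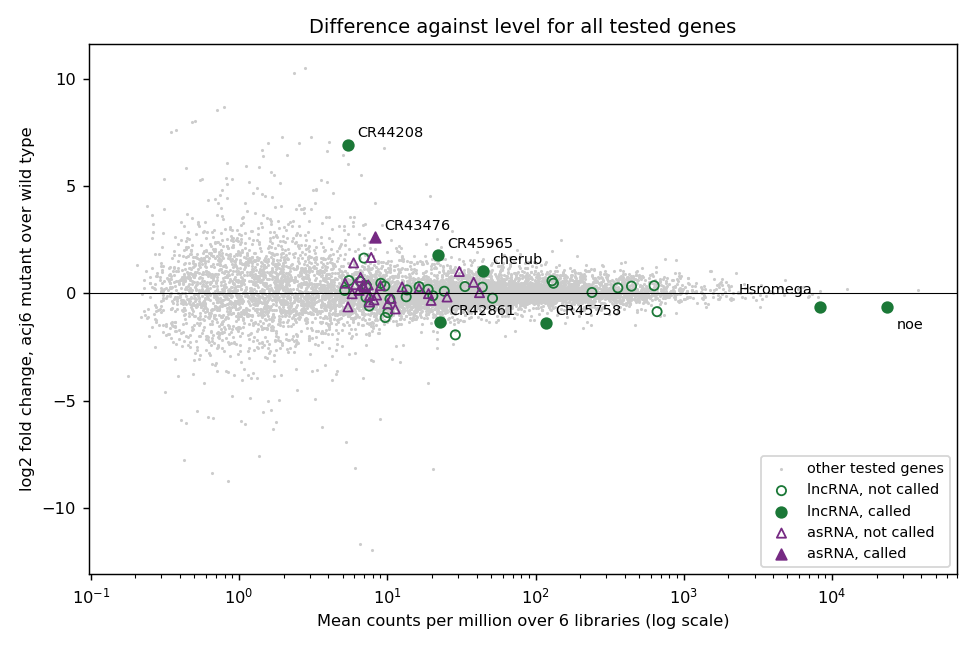
Log2 fold change of acj6 mutant over wild type against mean CPM over 6 libraries (log axis) for all 9229 tested genes, with lncRNAs as circles, antisense RNAs as triangles and called ones filled. The 4 higher RNAs lie below 100 CPM, and noe and Hsromega lie at the far right with changes of -0.65 and -0.62.

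Among the lower RNAs, CR45758 (FBgn0267322, chromosome arm 3L) changed most. It was counted at 63.1, 53.4 and 76.7 CPM in mutant replicates 1 to 3 and at 162, 157 and 198 CPM in wild-type replicates 1 to 3. Every mutant library lay well below every wild-type library. The log2 fold change was -1.36 ± 0.17 (SE, adjusted p 0.0060), and it kept its call under all 14 alternatives, with values from -1.49 to -1.25. The RNA has a single exon of 739 bases, overlaps no other gene, and lies between the coding genes CG32461, which had a count in 1 library only, and CG32457, at 0.724 CPM in the mutant and 1.05 CPM in the wild type.

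CR42861 (FBgn0262108, X chromosome) was counted at 12.6, 10.7 and 14.5 CPM in the mutant and at 30.0, 33.8 and 34.9 CPM in the wild type. The groups did not overlap, and the spread within each was small beside the gap (log2 fold change -1.32 ± 0.24, adjusted p 0.0217). It lies between Grip91, a gene of the gamma-tubulin complex, at 10.6 CPM in the mutant and 8.92 CPM in the wild type, and Pdcd4, an inhibitor of translation initiation, at 722 and 827 CPM, neither of which was called. Its call was lost in every leave-out of 1 library, although the log2 fold change stayed between -1.44 and -1.23 over all alternatives.

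noe (FBgn0026197, 3L) averaged 17931 ± 3434 CPM in the mutant and 29328 ± 4819.5 CPM in the wild type (SD, n = 3 each). The highest mutant library, at 21312.5 CPM, was below the lowest wild-type library, at 24101.5 CPM (log2 fold change -0.65 ± 0.14, adjusted p 0.0411). Its single exon lies within the gene body of blot, a transporter-like gene on the same strand, which averaged 11.1 ± 6.66 CPM in the mutant and 5.60 ± 1.02 CPM in the wild type and was not called. noe lost its call with the transcript-length trend removed (-0.56, adjusted p 0.0565) and without mutant replicate 2 or 3 or wild-type replicate 2 or 3, while its log2 fold change stayed between -0.79 and -0.52 over all alternatives.

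Hsromega (FBgn0001234, 3R) was counted at 7716, 5055 and 6363 CPM in the mutant and at 10472, 10229.5 and 9816 CPM in the wild type. The wild-type libraries lay close together and all above the mutant ones (log2 fold change -0.62 ± 0.13, adjusted p 0.0322). Removal of the length trend ended its call, at a log2 fold change of -0.60 (adjusted p 0.0601), as did every leave-out except that of mutant replicate 1, with values between -0.77 and -0.48 over all alternatives. Because noe and Hsromega hold a large share of the counts, CPM of other genes depend on them to a small degree. Fold changes were fitted after TMM scaling. Its factors were 0.984, 0.966 and 0.989 in mutant replicates 1 to 3 and 1.01, 1.02 and 1.03 in wild-type replicates 1 to 3. The coding genes that flank Hsromega, SIFaR, a neuropeptide receptor gene, and aus, were at 100.1 and 209 CPM in the mutant and 129.95 and 182 CPM in the wild type, and neither was called.

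Omega speckle proteins, which bind Hsromega, were looked at beside it. Of 10 matched and tested genes (Hrb87F, Hrb98DE, sqd, nonA, HnRNP-K, Rb97D, Iswi, Pep, TBPH and glo) 0 were called, whether by edgeR, DESeq2 or limma-voom, and in the edgeR fit 0 reached an unadjusted p of 0.05. The median log2 fold change of the list was -0.11. The RNA-binding protein gene sqd was at 307 ± 13.7 CPM in the mutant and 319 ± 16.7 CPM in the wild type, and Hrb98DE at 344 ± 28.9 and 393 ± 27.8 CPM.

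Among the higher RNAs, cherub (FBgn0262972, 3R), known for its unequal inheritance when neural stem cells divide, was the most abundant. Its level was 58.6, 58.8 and 57.3 CPM in mutant replicates 1 to 3 and 25.3, 24.1 and 40.1 CPM in wild-type replicates 1 to 3. The mutant libraries were nearly equal and all above the wild-type ones, of which replicate 3 was the highest (log2 fold change 1.03 ± 0.23, adjusted p 0.0431). The progenitor markers dpn, ase, wor and mira summed to between 0.160 and 8.88 CPM in the mutant libraries and between 0.463 and 7.84 CPM in the wild-type libraries. The highest sums were those of replicate 1 in each group, with ase at 4.75 CPM and mira at 4.05 CPM in the mutant and mira at 7.76 CPM in the wild type, and wor was at 0 throughout. Their part in the result was not tested. The RNA-binding protein gene Syp, a partner of cherub known from neural stem cells, was at 507 ± 52.8 CPM in the mutant and 546 ± 37.1 CPM in the wild type and was not called. cherub kept its call in 1 of 6 leave-outs (without wild-type replicate 3), and lost it with the length trend removed and with scaling by library size alone, where its log2 fold change was 0.97.

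CR45965 (FBgn0267627, 3L) rose to 29.3, 35.0 and 37.6 CPM in the mutant, against 9.28, 6.34 and 15.3 CPM in the wild type. The groups did not overlap (log2 fold change 1.78 ± 0.35, adjusted p 0.0262). It lies in the gene body of Ten-m, on the same strand and outside its exons. Ten-m, which encodes a teneurin that matches projection neurons with sensory neurons, averaged 1200.2 ± 112 CPM in the mutant and 705 ± 18.9 CPM in the wild type (0.83 ± 0.10, adjusted p 0.0049). lncRNA:CR45962, which shares 25.4% of its exon bases with Ten-m on the same strand, was at 10.9, 6.91 and 14.0 CPM in the mutant and 11.3, 6.92 and 7.77 CPM in the wild type. It was not called (0.34 ± 0.41), so the 3 transcription units of this locus had fitted changes of 1.78, 0.34 and 0.83, whose differences were not tested. Without strand and splice information, reads of unspliced Ten-m RNA cannot be told apart from CR45965, and CR45965 lost its call in every leave-out except that of wild-type replicate 3.

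asRNA:CR43476 (FBgn0263453, 3R) was the 1 antisense RNA called. It was counted at 17.7, 13.0 and 11.7 CPM in mutant libraries and at 3.22, 1.94 and 2.003 CPM in wild-type libraries. Every mutant library was thus above every wild-type one (log2 fold change 2.62 ± 0.44, adjusted p 0.0150). CR43476 kept its call in 2 of 6 leave-outs and lost it without mutant replicate 1 or 2 or wild-type replicate 2 or 3. It shares 43.7% of its exon bases with CG42534 on the opposite strand, which was at 17.3, 12.9 and 26.7 CPM in the mutant and 8.80, 5.41 and 1.35 CPM in the wild type. Those groups did not overlap either, but CG42534 was not called (1.92 ± 0.62, adjusted p 0.140). RefSeq's gene table also lists CR43476 as an older name of a coding gene, CG46335, so the identity of this entry is uncertain.

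lncRNA:CR44208 (FBgn0265106, 2R) had 223, 261 and 686 counts in mutant replicates 1 to 3 and 0, 0 and 7 counts in wild-type replicates 1 to 3. This is 5.83, 8.42 and 18.3 CPM in the mutant, against 0, 0 and 0.286 CPM in the wild type, with a fitted log2 fold change of 6.93 ± 1.35 (adjusted p 0.0261). The mutant libraries differed among themselves, with replicate 3 highest. It lies in the gene body of CG1688, on the opposite strand, which averaged 41.8 ± 4.40 CPM in the mutant and 36.1 ± 7.21 CPM in the wild type. limma-voom did not call it, and it kept its call in 2 of 6 leave-outs.

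**Figure D3:**
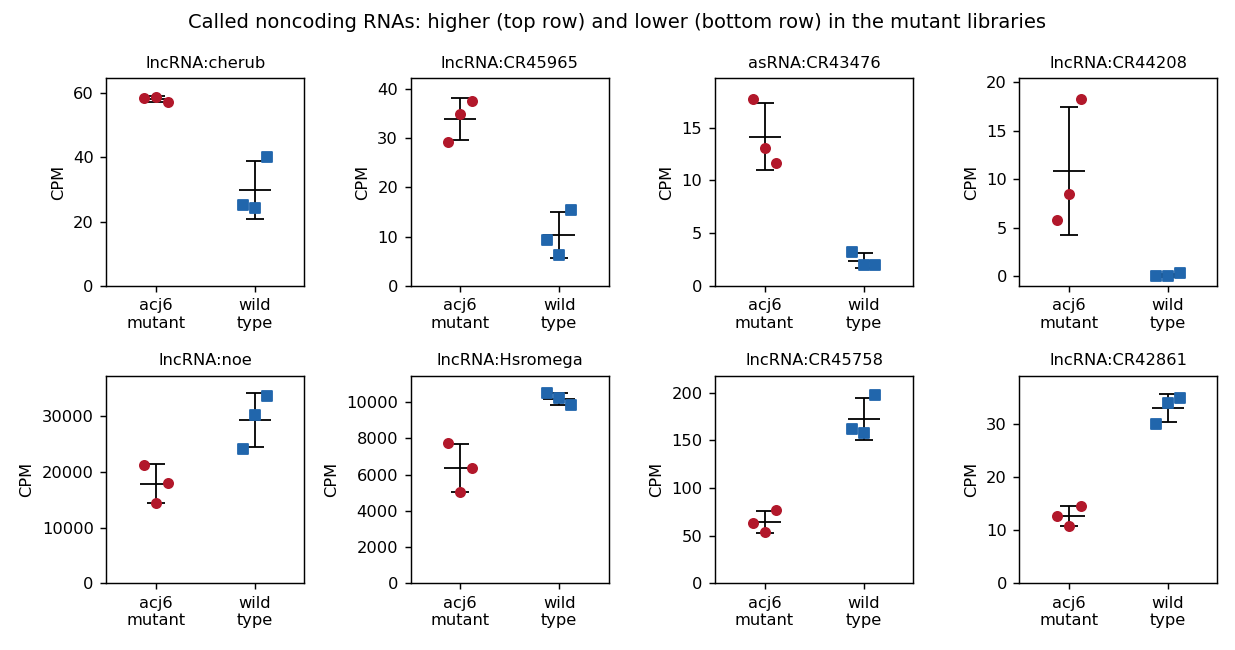
Level in CPM of the 8 called RNAs by library, acj6 mutant (circles) left of wild type (squares), with bars for the mean ± SD of 3 libraries. The groups do not overlap in any panel, and CR44208 is at 0 in 2 wild-type libraries.

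CR43476 and CR44208 met the level of 5 CPM through the mutant libraries. In all, 57 of the 65 RNAs averaged 5 CPM or more in both genotypes. Of these, 2 were higher and 4 lower, beside 3.07% and 1.33% of all tested genes. A further 7 did so in the mutant mean only (CR43476, CR45479, CR44718, CR45604, CR45911, CR44208 and CR44030) and 1, asRNA:CR44027, in the wild-type mean only, and such RNAs had to lean one way. asRNA:CR45479, for example, was at 5.41, 13.4 and 16.5 CPM in the mutant and 5.51, 3.30 and 2.66 CPM in the wild type (1.68 ± 0.55, adjusted p 0.143). lncRNA:CR44718 was at 4.02, 10.006 and 17.3 CPM in the mutant and 4.25, 0.145 and 6.05 CPM in the wild type, overlapping groups with a wide spread. The lowest RNAs included were CR44027 at 5.44 CPM, asRNA:CR44030 at 5.20 CPM and lncRNA:CR45660 at 5.16 CPM over all libraries, and the highest left out were lncRNA:CR31781 at 4.35 CPM, lncRNA:marge at 4.32 CPM and asRNA:CR45970 at 4.24 CPM.

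Among the abundant RNAs that were not called, several leaned one way in every library. The ranges of the groups did not overlap for 18 of the 65 RNAs (27.7%), 12 higher and 6 lower, against 24.2% of all tested genes, and 10 of these were not called. mimi was at 691, 660.4 and 739.9 CPM in the mutant and 572, 547 and 574 CPM in the wild type (0.36 ± 0.09, adjusted p 0.0552). lncRNA:CR45312 was at 158, 151 and 149 CPM in the mutant and 88.9, 109 and 119 CPM in the wild type (0.59 ± 0.14, adjusted p 0.0546). Both lay just outside the threshold and were called by DESeq2, limma-voom, RLE scaling and a stricter filter.

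lncRNA:CR44978, which lies antisense within the gene body of the receptor phosphatase gene Lar, was at 155, 139.7 and 158 CPM in the mutant and 112, 108 and 119 CPM in the wild type (0.48 ± 0.12, adjusted p 0.0705). lncRNA:CR42862 was at 455, 479 and 526 CPM in the mutant and 387, 409.8 and 406 CPM in the wild type (0.34 ± 0.10, adjusted p 0.0949). Those groups did not overlap either. DESeq2 called both CR44978 and CR42862, and CR44978 was also called with the length trend removed. lncRNA:CR34335, within the gene body of the recognition protein gene DIP-alpha on the same strand, was at 529, 372 and 477 CPM in the mutant and 524, 1064 and 995 CPM in the wild type. Wild-type replicate 1 fell among the mutant libraries, and the RNA was not called (-0.85 ± 0.24, adjusted p 0.0968), while without that library it was (-1.09). With all 6 libraries it was also called by DESeq2, with the length trend removed and without a filter on low counts.

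Of the lesser RNAs, asRNA:CR45604, lncRNA:CR45333, lncRNA:CR43492 and asRNA:CR45007 also had groups that did not overlap and were not called, with log2 fold changes of 1.43, -1.12, -0.89 and 0.52. For lncRNA:CR42549 the 95% interval of the log2 fold change ran from -0.08 to 0.60 and for lncRNA:CR46064 from -0.75 to 0.31. CR42491, which shares 50.5% of its exon bases with the ribosomal protein gene RpL22, was at 239 ± 32.0 CPM in the mutant and 241 ± 26.6 CPM in the wild type, with an interval from -0.26 to 0.35.

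Replicates of a group varied unequally from RNA to RNA. The coefficient of variation over 3 libraries had a median of 22.5% in the mutant and 19.2% in the wild type, and 11 RNAs passed 50% in at least 1 group. Of these, lncRNA:CR44832 was at 2.72, 11.0 and 21.2 CPM in the mutant and 69.4, 56.3 and 12.1 CPM in the wild type. Its groups overlapped, and its log2 fold change of -1.93 ± 0.76 was not called (adjusted p 0.238). asRNA:CR43481, beside the small heat shock genes, was the most abundant of the 11. It was at 54.9, 15.8 and 51.1 CPM in the mutant and 25.3, 24.4 and 12.3 CPM in the wild type (1.02 ± 0.46, adjusted p 0.316). The heat shock protein gene Hsp26 beside it fell (-0.64 ± 0.10, adjusted p 0.0117), and Hsp67Ba, whose exons it overlaps, was at 489.8 ± 43.1 CPM in the mutant and 525 ± 42.5 CPM in the wild type.

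Overlap with coding genes set what could be counted. In the Ensembl 115 gene models, 35 lncRNA or asRNA genes lie wholly within exons of a coding gene on the opposite strand and share none with a gene of their own strand. All 35 had 0 counts in all 6 libraries, although 21 of the coding genes averaged 5 CPM or more and the highest 392 CPM. No read over these shared bases was thus credited to a nested RNA, and entries set aside as ambiguous came to between 2.49% and 2.66% of gene counts. The levels given for antisense RNAs are read here as those of the bases beyond the exons of the partner. Without strand information, reads of a coding gene outside its annotated exons cannot be told apart from a noncoding RNA there. This limit applies to any RNA within or beside a coding gene, such as CR43476 beside CG42534 and lncRNA:CR45910 within the gene body of msi. It applies as well to CR34335 within DIP-alpha, CR44978 within Lar, CR44208 within CG1688 and CR42491, which overlaps RpL22. lncRNA:CR45982, at 7.21 CPM over all libraries, lies within the gene body of Pxn, at 4742 CPM.

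Of the 65 RNAs, 27 share no exon base with another gene, and 38 share between 1.94% and 90.5%. All 28 antisense RNAs share bases with a gene on the opposite strand, with a median of 47.1% of their exons, and 11 of them share 50% or more. Of the 37 lncRNAs, 10 share any. By position, 29 overlap exons of a coding gene on the opposite strand, 7 overlap them on the same strand, 3 lie in a gene body on the same strand and 5 on the opposite strand without touching its exons, and 21 overlap no coding gene. Calls were 1 of 29 with opposite-strand exon overlap and 4 of 21 (1 higher, 3 lower) without any coding overlap, a difference that was not tested. Of the 27 RNAs that share no exon base, 7 were called, 3 higher and 4 lower, beside 4.40% of all tested genes and 5.64% of those at 5 CPM or more.

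The 4 most abundant antisense RNAs had coding partners of very different levels. asRNA:CR45009 was at 41.6 ± 6.99 CPM in the mutant and 42.2 ± 7.05 CPM in the wild type, while its partner FucTC, a fucosyltransferase gene, was at 1.23 ± 0.0518 and 3.05 ± 1.47 CPM. asRNA:CR45951 was at 23.4 ± 4.41 CPM in the mutant and 27.2 ± 5.69 CPM in the wild type, and its partner park, the parkin gene, at 5.54 ± 2.03 and 6.05 ± 1.88 CPM. asRNA:CR45007, by contrast, was at 44.3 ± 4.95 and 32.1 ± 7.10 CPM, beside 705 CPM over all libraries for Arglu1, and CR43481, described above, overlaps the abundant Hsp67Ba. CPM of an RNA and its partner are not adjusted for length. Neither CR45009 (0.04 ± 0.21) nor CR45951 (-0.16 ± 0.26) was called.

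Changes of the noncoding RNAs and of the coding genes they overlap were set side by side for the 39 pairs in which both were tested. Over these pairs the log2 fold changes correlated at 0.306 (Pearson's r) and 0.392 (Spearman's rho), with the same sign in 23 of 39. For the 24 pairs with opposite-strand exon overlap r was 0.621 and rho 0.394, and for the 15 other pairs r was 0.101 and rho 0.0859. Among the largest values were RNAs that met 5 CPM in the mutant mean only, such as CR43476 with CG42534. With RNAs at 5 CPM or more in both genotypes, a restriction chosen after seeing the data, r was 0.218 and rho 0.292 over 20 opposite-strand exon pairs, and r 0.3004 and rho 0.305 over all 34 pairs. The pairs share the same 6 libraries.

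**Figure D4:**
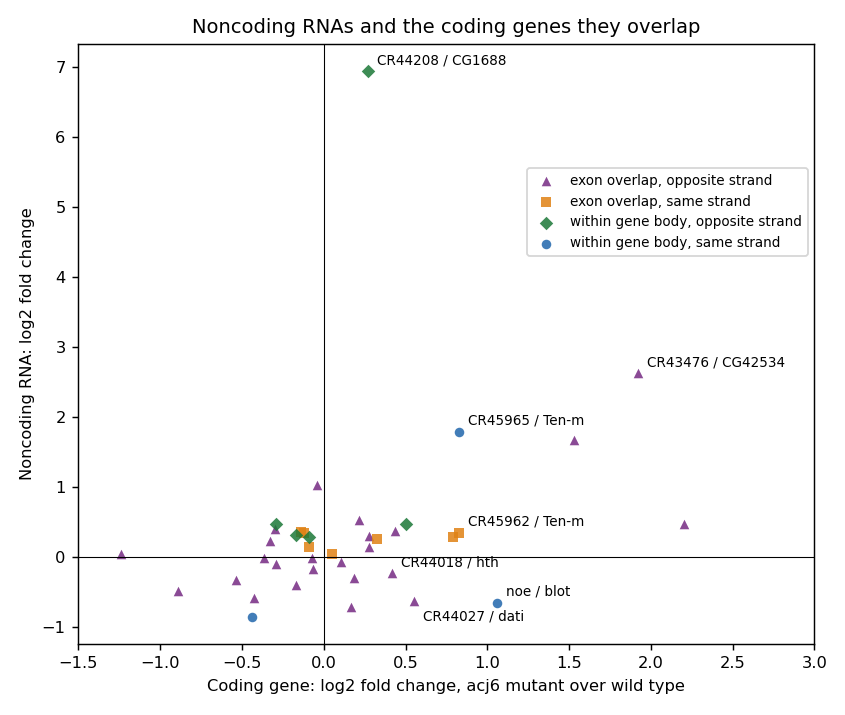
Log2 fold change (acj6 mutant over wild type) of each noncoding RNA against that of the coding gene it overlaps, for the 39 tested pairs, with marker shapes for the kind of overlap and names where either gene was called. CR45965 with Ten-m is the 1 pair with both called.

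Of 164 distinct coding genes that overlap one of the 65 RNAs or are nearest on either side, 136 were tested and 11 of these were called (8.09%, beside 4.40% of all tested genes). They stood beside 14 of the RNAs, of which 1, CR45965, was called, against 8 of all 65, a difference that was not tested. kn, a transcription factor gene of neuron identity, rose 2.94-fold, while its neighbour asRNA:CR42254 was at 11.7, 22.3 and 17.9 CPM in the mutant and 12.7, 15.2 and 18.4 CPM in the wild type (0.23 ± 0.33). The proton channel gene OtopLc fell (-1.49 ± 0.14), while asRNA:CR45520 next to it was at 8.22 ± 2.15 CPM in the mutant and 11.9 ± 3.14 CPM in the wild type (-0.48 ± 0.38). caup, an Iroquois homeobox gene, rose (0.79 ± 0.12), while lncRNA:CR32111 (0.32 ± 0.29) and lncRNA:CR43431 (-0.15 ± 0.38), which lie between caup and mirr, were not called.

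The homeobox gene hth rose (0.42 ± 0.09, adjusted p 0.0409), and the antisense asRNA:CR44018, with 3.23% of its exon bases shared, was at 9.55 ± 6.15 CPM in the mutant and 11.7 ± 0.966 CPM in the wild type (-0.23 ± 0.48). dati, a zinc-finger gene, rose as well (0.55 ± 0.11, adjusted p 0.0327), and its antisense RNA CR44027 was at 5.90, 2.97 and 3.66 CPM in the mutant and 8.17, 6.11 and 5.80 CPM in the wild type (-0.62 ± 0.51). The 95% intervals of these RNAs are wide, from -1.31 to 0.85 for CR44018 and from -1.79 to 0.54 for CR44027.

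A total of 7 of the 65 RNAs hold a microRNA or small nucleolar RNA gene on their own strand. lncRNA:CR31044 holds mir-279 and mir-996, related microRNAs known for restricting the formation of carbon dioxide-sensing neurons, and was at 10.1, 5.49 and 12.2 CPM in the mutant and 10.6, 10.2 and 14.0 CPM in the wild type. lncRNA:CR45910, antisense within the gene body of the RNA-binding protein gene msi, holds the neuronal microRNA mir-1000 and was at 9.27, 12.9 and 8.78 CPM in the mutant and 7.80, 7.58 and 7.93 CPM in the wild type. lncRNA:CR45911 holds mir-13a, mir-13b-1 and mir-2c and averaged 6.54 ± 2.77 CPM in the mutant and 4.49 ± 2.83 CPM in the wild type. asRNA:CR17025, antisense to side-IV, holds mir-252 and averaged 7.58 ± 5.32 and 6.07 ± 0.677 CPM. lncRNA:CR45347 holds mir-4973 and averaged 19.1 ± 4.29 and 21.5 ± 2.98 CPM.

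None of these 5 host RNAs was called, and their log2 fold changes were -0.26 ± 0.40 (CR31044), 0.47 ± 0.37 (CR45910), 0.60 ± 0.63 (CR45911), 0.38 ± 0.57 (CR17025) and -0.11 ± 0.27 (CR45347). The other hosts were CR42491, not called, and Hsromega, with mir-4951, which fell. Mature microRNAs are not measured in such libraries. Of 7 genes of the microRNA pathway 1 rose, beside 3.07% of all tested genes. It was Ranbp21, an exportin gene (102 ± 25.8 CPM in the mutant, 32.1 ± 19.8 CPM in the wild type, adjusted p 0.0472, edgeR's quasi-likelihood test). Dcr-1 was at 17.8 ± 6.65 CPM in the mutant and 6.19 ± 4.02 CPM in the wild type. AGO1, an Argonaute gene, was at 172 ± 9.64 and 214 ± 14.2 CPM, and neither was called. The list had a median log2 fold change of 0.31.

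Proteins that bind small nucleolar RNAs had a median log2 fold change of -0.18 over 7 tested genes. DESeq2 called 1 of them, while edgeR and limma-voom called 0, with 1 at an edgeR p under 0.05 before adjustment. Of 8 tested genes of nuclear RNA decay and export 1 rose, again beside 3.07% of all tested genes. It was Nab2, a poly(A)-binding protein gene (151 ± 24.3 CPM in the mutant, 84.1 ± 16.0 CPM in the wild type, adjusted p 0.0329, edgeR's quasi-likelihood test). The median of the list was -0.10. Among 7 temporal identity genes and targets of the let-7 microRNA 2 rose, br and Eip93F, both ecdysone-induced, beside the same 3.07%. In that list chinmo (114 ± 19.2 and 102 ± 2.90 CPM in mutant and wild type) and ab (126 ± 22.1 and 105 ± 16.0 CPM) were not called.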

How the data were processed

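The authors deposited whole-number read counts, not normalized, as 1 table of genes for each library. Per the submitters' processing notes, the tools were HTSeq 0.11.2, STAR 2.5.4 and bcl2fastq 2.19.0.316. Neither build, annotation nor strand setting is given in the sources used here, so coordinates are left out. Each file held 17471 genes, 96 ERCC entries, 3 transgenes and 5 summary entries, and only the genes entered totals and tests. Reads outside genes came to 8.59% to 10.9% of gene counts. For each gene count, between 2.19 and 4.16 alignments were left uncounted for lack of a unique position. This ratio was 2.95, 2.19 and 2.76 in mutant replicates 1 to 3 and 3.21, 3.74 and 4.16 in wild-type replicates 1 to 3. The groups thus did not overlap in it. It ranked the 6 libraries in the same order as the share of noe in gene counts did. Its part in the lower share of noe, and in the lower summed share of the 65 RNAs, was not tested. Nothing says that the replicates are separate animals or dissections, and the spread that p-values measure may be technical.

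Genes kept by filterByExpr (9229) were scaled with TMM and tested with edgeR 4.0.16 (glmQLFit, glmQLFTest, two-sided, R 4.3.3) on genotype over all 6 libraries, with Benjamini-Hochberg adjustment and calls at an adjusted p under 0.05. CPM are on gene totals without TMM. The scripts were tested on simulated data. Symbols, chromosome arms, exon lengths and overlaps came from Ensembl 115 gene models (BDGP6.54) by identifier, and neighbouring genes are the nearest coding genes in them. caz, hoip and Imp were not matched to an identifier. Alternatives used limma 3.58.1 and DESeq2 1.42.0.

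Members, lists and the rule for naming were chosen with earlier results of these data known. The rule named called RNAs, the 12 most abundant, those with a given name, the 3 on either side of the level of 5 CPM, the 5 uncalled ones with the largest change and no overlap, those above 5 CPM in 1 genotype only, and the coding genes they overlap. Other RNAs and neighbouring genes were named after their values were seen.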

Additional observations from a re-analysis of the deposited data

How the results depend on the processing

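The count of called RNAs was 8 and lay between 6 and 10 under RLE scaling, library size alone, limma-voom, the length trend removed, both filters, and levels of 2 or 10 CPM for inclusion. DESeq2 called 14 of the 65 and 940 of all genes, against 406. Leaving out 1 library gave 1 to 4 called RNAs and 143 to 249 called genes. Same-numbered libraries showed little shared variation (r of -0.00131 to 0.0469 across genes). Noise of single genes enters these values, so they cannot exclude a pairing. With the replicate number as a block in edgeR's quasi-likelihood test, 5 RNAs and 293 genes were called. In that fit noe (adjusted p 0.0591), cherub (0.0640) and CR42861 (0.0559) were not called. The median log2 fold change of the RNAs was 0.043 at an inclusion level of 10 CPM, and 0.12 to 0.23 over the leave-outs. An inclusion level of 2 CPM gave 129 RNAs and one of 10 CPM 36, with 9 and 6 called. The summed share differed by -0.390 percentage points without noe, and by -1.80 to -1.27 over the leave-outs. The sign turned for CR42491 with library size alone (-0.013) and without replicate 1 of either group (leave-outs -0.066 to 0.13), for CR46064 without wild-type replicate 1 (-0.37 to 0.059), and for CR45660 without replicate 3 of either group (-0.071 to 0.42). None of these was called. Of 364 alternative values of the 26 RNAs named by the rule, 298 stayed on their side of the threshold, 41 lost a call, 19 gained one and 6 changed sign; the cause was not tested. At these depths 3 counts, the floor used here, are 0.0784 to 0.123 CPM.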

Other observations

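Below the inclusion level of 5 CPM, 325 further lncRNA and asRNA genes were tested and 2 were called, both higher in the mutant libraries. Of all tested genes 4.40% were called and 3.07% were higher. Both RNAs passed the filter on low counts through the mutant libraries only, so they had to lean that way. asRNA:CR43454 had 310, 70 and 235 counts in mutant replicates 1 to 3 and 0 counts in all 3 wild-type libraries, which makes it at least 165-fold higher in CPM of the summed libraries (5.76 CPM in the mutant, with 3 counts over the wild-type libraries as the floor) (adjusted p 0.0119, edgeR's quasi-likelihood test). asRNA:CR45885 had 74, 28 and 53 counts in the mutant and 0 in the wild type, at least 41.7-fold higher by the same floor (adjusted p 0.0409). Of all 2365 genes considered, 766 had no count in any library, and 207 averaged 1 CPM or more.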
